A study of Mus musculus with 142 samples.

Results

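Transcripts of 9 genes of transforming growth factor beta (TGF-beta) signalling were followed in cultured mouse oligodendrocyte precursor cells (OPCs). They were listed by name as members of the pathway, with earlier results of these data known, and the listing rule uses no measured value. They are the ligands Tgfb1, Tgfb2 and Tgfb3, the receptors Tgfbr1, Tgfbr2 and Tgfbr3, the latency protein gene Ltbp1, the activator gene Thbs1 and the contractile target gene Acta2. They are 9 of 54127 annotated genes, of which 47516 had a count in at least 1 library. All 9 passed the filter on low counts and were tested among 23003 genes.

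The data are RNA-seq libraries of OPCs bound to an antibody against PDGFRa (immunopanned) from mouse pups 5 to 7 days old on an FVB background. The cells came from the brainstem or from the dorsal telencephalon, that is cortex, corpus callosum and hippocampus. K27M pups carried a conditional K27M form of the histone gene H3f3a that Cre under a human GFAP promoter switches on, and controls were littermates. Tissue was pooled over a litter by region and genotype, so a culture is a pool of pups. Each region and genotype has cultures numbered 38, 41 and 42, giving 12 culture lines. Day 0 cells stayed in proliferation medium (forskolin, CNTF, neurotrophin-3 and PDGF), and cells of days 1, 2 and 5 were kept for that time in differentiation medium (forskolin, CNTF and thyroid hormone). The 16 groups hold 9 wells each, except the brainstem controls of day 1 and the brainstem K27M cells of day 2, with 8 wells each. Wells of a line share its cells, so n below is 3 cultures, and counts of the wells of a line and day were summed before testing. By the labels' batch numbers, telencephalon libraries are in batches 1 and 2 and brainstem libraries in batches 3 and 4, so region and batch cannot be told apart. Within each region culture 38 is 1 batch and cultures 41 and 42 the other. Passage averaged 5.51 in brainstem controls, 3.83 in brainstem K27M, 2.14 in telencephalon controls and 2.11 in telencephalon K27M wells.

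TGF-beta ligands are secreted in a latent form, held by their own propeptide and tethered to the extracellular matrix by latent TGF-beta binding proteins such as LTBP1. Thrombospondin 1, encoded by Thbs1, can release the active ligand from its propeptide. The active ligand binds the type II receptor (Tgfbr2), which phosphorylates the type I receptor (Tgfbr1), which in turn phosphorylates SMAD2 and SMAD3. The co-receptor betaglycan (Tgfbr3) presents ligand, TGF-beta2 above all. Smooth muscle alpha-actin, encoded by Acta2, is a classic transcript raised by TGF-beta in fibroblasts and mural cells, and in the brain it marks smooth muscle and some pericytes and reactive astrocytes. In the oligodendrocyte lineage TGF-beta is known for slowing the division of precursors and favouring their differentiation.

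Depth ran from 26.6 to 455 M read pairs per library with a median of 46.9 M and a second highest of 84.7 M. The deepest library is a brainstem control well of day 5, culture 38. Levels are given as CPM, counts per M of a library total that was adjusted by edgeR's TMM factor, which ran from 0.621 to 1.23 over the libraries, so a CPM is not the count over the raw depth. The gene that carries the knock-in, H3f3a, had 148 to 545 CPM in control wells and 359 to 765 CPM in K27M wells, which does not read the mutated base. No 2 wells of a group and culture agreed within counting noise. OPC markers (7 genes) summed to 1118 to 6410 CPM over the libraries, and myelin markers (8 genes) to 395 to 2835 CPM at day 0 and 31482 to 73767 CPM at day 5. Brainstem control wells of day 5 had counts for 23254 to 33752 genes, where day 0 wells of the same lines had 22998 to 24121, and results at day 5 are given with and without cultures 41 and 42 of that group where they decide a call. Replicate 1 of telencephalon K27M culture 42 stood apart at days 1 and 2, with Acta2 at 11.9 and 20.5 CPM where the medians of its groups were 3.34 and 2.18 CPM, and results were also computed without these 2 wells. These are bulk libraries, so fewer cells of a type and less RNA per cell cannot be told apart.

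In TPM, a level that allows for transcript length, Tgfbr1 was the most abundant of the 9 genes, with a mean of 7.41 TPM over the 16 groups. Tgfb2 followed with 1.57 TPM, Acta2 with 1.06, Ltbp1 with 0.883, Tgfb3 with 0.489, Thbs1 with 0.396, Tgfbr2 with 0.334 and Tgfbr3 with 0.182 TPM. Tgfb1 was the lowest at 0.0209 TPM. Tgfb2 was therefore the leading TGF-beta ligand transcript in the mean over groups and Tgfb1 the least. Tgfb1 had 474 counts in all libraries together and was at 0 in 25 of them, so its values rest on few reads. Acta2 ranged most between groups, from 0.00322 TPM in brainstem controls of day 2 to 5.58 TPM in telencephalon K27M cells of day 5.

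**Figure D1:**
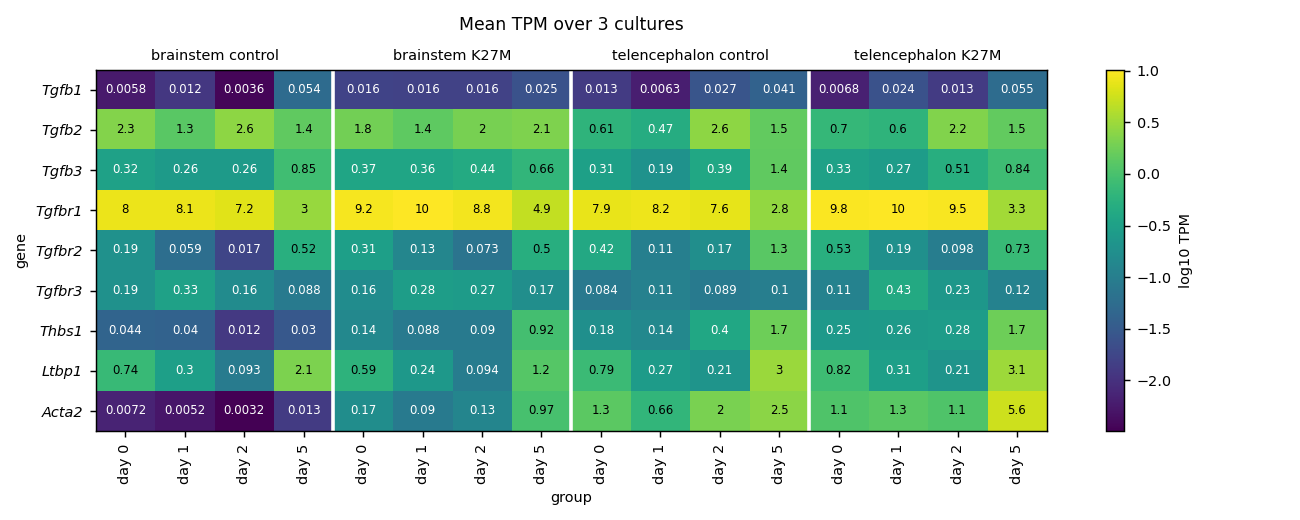
Mean TPM of 3 cultures for the 9 genes (rows) in the 16 groups (columns: region, genotype and day). Colour is log10 TPM and the number in each cell is TPM. The Tgfbr1 row has the highest mean, at 2.79 to 10.2 TPM. At day 5 in telencephalon it lies below Ltbp1 in controls (2.79 against 3.02 TPM) and below Acta2 in K27M (3.32 against 5.58 TPM). The Acta2 row runs from 0.00322 TPM in brainstem controls to 5.58 TPM in telencephalon K27M cells.

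**Figure D2:**
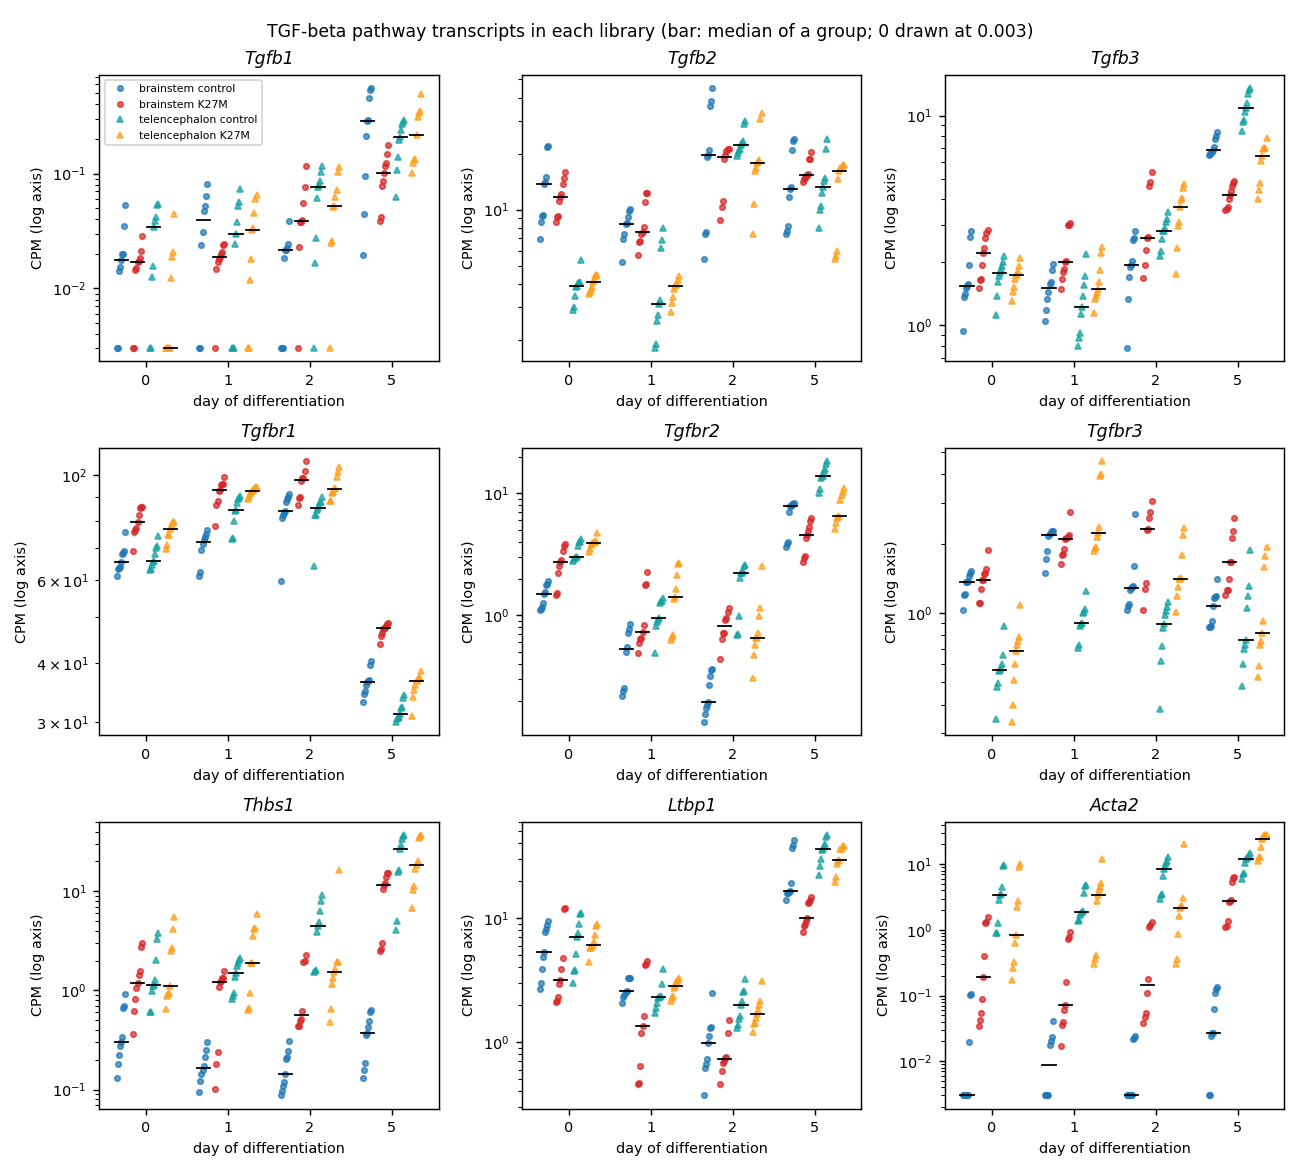
CPM (log axis) of each gene in each library by day, with circles for brainstem, triangles for telencephalon, colours for region and genotype, and a bar at the median of each group; values of 0 are drawn at 0.003. The medians of Acta2 and Thbs1 in brainstem controls lie lowest on every day, and Tgfbr1 is lower at day 5 than at day 0 in every group.

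How did the 9 genes change over 5 days of differentiation? Day 5 was compared with day 0 in each region and genotype. Tgfb1, Tgfb3 and Ltbp1 rose and Tgfbr1 fell in all 4 comparisons, while Thbs1 and Acta2 rose in some of them. Of the 9 genes, 5 passed in brainstem controls (4 higher, 1 lower), 6 in brainstem K27M (5 higher, 1 lower), 7 in telencephalon controls and 7 in telencephalon K27M (6 higher, 1 lower in each). A pass is an adjusted p under 0.05 in edgeR's quasi-likelihood test, Benjamini-Hochberg adjusted over all genes tested. Each value was also computed under 14 alternatives, and a call is lost where the adjusted p of one of them was 0.05 or more. Of the 14, 1 takes each well as a sample although wells of a line share its cells. The ranges of adjusted p over the alternatives include that fit, so their low ends are no measure of the spread between cultures. Of all genes tested 62.0%, 55.1%, 60.1% and 61.2% passed in these comparisons, so passing was the common outcome. With each well taken as a sample, 5, 8, 9 and 9 of the 9 genes passed, against 75.6%, 72.3%, 75.1% and 75.6% of genes. The median log2 fold change of the 9 genes was 1.92, 0.93, 2.07 and 1.77, where that of all genes tested was 0.09, 0.07, 0.12 and 0.10.

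Of the ligands, Tgfb3, whose product shares receptors with the other TGF-betas, rose in each comparison. The lowest, median and highest library of brainstem controls had 0.935, 1.54 and 2.82 CPM at day 0 and 6.51, 6.85 and 8.33 CPM at day 5. In telencephalon controls these were 1.12, 1.78 and 2.14 CPM and 8.41, 10.8 and 13.6 CPM. The libraries of the 2 days did not overlap in either region or genotype. Log2 fold changes (± SE) were 2.02 ± 0.27 in brainstem controls (adjusted p = 1.1e-07), 0.93 ± 0.26 in brainstem K27M (0.0028), 2.64 ± 0.27 in telencephalon controls (8.3e-10) and 1.77 ± 0.26 in telencephalon K27M (8.3e-07). Without culture 38 the brainstem K27M value was 0.87 (adjusted p = 0.0582, the highest over the 14 alternatives, the lowest being 3.5e-08).

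Tgfb1 rose from 0, 0.0175 and 0.0536 CPM (lowest, median and highest library) at day 0 to 0.0195, 0.286 and 0.561 CPM at day 5 in brainstem controls. In telencephalon controls the values were 0, 0.034 and 0.0547 CPM and 0.0624, 0.206 and 0.295 CPM. The 9 libraries of a group held 5 to 13 Tgfb1 counts at day 0 and 50 to 132 at day 5. Log2 fold changes were 3.61 ± 0.54, 2.64 ± 0.57, 2.77 ± 0.52 and 4.29 ± 0.60 in brainstem control, brainstem K27M, telencephalon control and telencephalon K27M. For brainstem K27M an offset for effective transcript length lowered the value to 1.16 (adjusted p = 0.247, against 1.1e-06 to 0.247 over all alternatives).

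Tgfb2 rose over the 5 days in telencephalon alone by this test. Telencephalon controls had 2.88, 3.88 and 5.34 CPM at day 0 and 7.93, 13.2 and 23.9 CPM at day 5 (lowest, median and highest library). The libraries of the 2 days did not overlap. It rose by 1.81 ± 0.42 in telencephalon controls (adjusted p = 0.000371) and 1.58 ± 0.41 in telencephalon K27M (0.00146), where leaving out culture 41 gave 1.32 (0.0656, with 5.8e-10 to 0.0656 over the alternatives). In brainstem the values were 0.00 ± 0.40 in controls and 0.47 ± 0.40 in K27M, neither of which passed. Whether the 5-day change itself differs between regions was not tested. On day 2 Tgfb2 reached 22.3 CPM as a median in telencephalon controls and 19.6 CPM in brainstem controls, where single libraries ran from 5.43 to 45.2 CPM. These brainstem libraries separated by culture, with 7.06, 20.1 and 40.5 CPM in cultures 38, 41 and 42.

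Tgfbr1, the type I receptor, was the gene that fell. Libraries of brainstem controls ran from 61.2 to 75.8 CPM at day 0 (median 65.3) and from 33.2 to 40.5 CPM at day 5 (median 36.6). Telencephalon controls ran from 62.9 to 74.4 CPM (median 65.9) and from 30.1 to 34.3 CPM (median 31.3). No day 5 library reached the level of any day 0 library of its region and genotype. The log2 fold changes were -0.93 ± 0.08, -0.77 ± 0.08, -1.11 ± 0.08 and -1.13 ± 0.08 for brainstem control, brainstem K27M, telencephalon control and telencephalon K27M, and all 4 passed under all 14 alternatives. Before this fall the level was not lower: at day 2 the group means were 84.5 ± 6.97 CPM (SD of 3 cultures) in brainstem controls and 83.2 ± 5.33 CPM in telencephalon controls, against 68.0 ± 3.62 and 68.3 ± 3.26 CPM at day 0.

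Tgfbr2, the type II receptor, had its lowest group medians at days 1 and 2 and its highest at day 5. In brainstem controls the median library was 1.49, 0.525, 0.193 and 7.86 CPM on days 0, 1, 2 and 5. In telencephalon controls it was 3.03, 0.95, 2.22 and 13.9 CPM. Day 5 exceeded day 0 by 2.10 ± 0.44 in brainstem controls (adjusted p = 0.000131) and by 2.07 ± 0.44 in telencephalon controls (0.00015), with no overlap of libraries and a pass under all 14 alternatives. In K27M lines the difference was 0.71 ± 0.43 in brainstem (0.161) and 0.89 ± 0.43 in telencephalon (0.0715). The co-receptor Tgfbr3 did not pass in any of the 4 comparisons, with log2 fold changes of -0.42 to 0.69 and its lowest adjusted p, 0.0561, in telencephalon controls.

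Ltbp1 rose in all 4 comparisons, after a low point at day 2. The median library of telencephalon controls held 7.06, 2.29, 1.99 and 36.1 CPM on days 0, 1, 2 and 5, and that of brainstem controls 5.31, 2.57, 0.978 and 16.4 CPM. In brainstem controls the highest value at day 5, 42.7 CPM, came from culture 41, whose summed level was 37.3 CPM against 16.8 and 14.8 CPM in cultures 38 and 42. Log2 fold changes of day 5 against day 0 were 1.92 ± 0.47, 1.18 ± 0.47, 2.46 ± 0.48 and 2.16 ± 0.47 in the order above. The brainstem K27M call (adjusted p = 0.0319) was lost without culture 38 (0.87, adjusted p = 0.3) or culture 41 (0.81, 0.198), with 2.4e-05 to 0.3 over the alternatives, and culture 42 alone showed a change of only 0.11 on the log2(CPM + 0.1) scale.

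Thbs1 rose over 5 days in 3 of the 4 comparisons. Telencephalon controls went from 0.611, 1.14 and 3.81 CPM at day 0 to 4.09, 26.9 and 37.3 CPM at day 5 (lowest, median and highest library), with no overlap. The log2 fold change was 3.94 ± 0.70 there (adjusted p = 1.2e-05), 3.18 ± 0.67 in telencephalon K27M (0.000127) and 2.71 ± 0.66 in brainstem K27M (0.000841). Brainstem controls had 0.131, 0.304 and 0.911 CPM at day 0 and 0.132, 0.374 and 0.638 CPM at day 5, a difference of 0.30 ± 0.69 (0.722). The brainstem K27M call was lost without culture 42 (2.19, adjusted p = 0.0538, the highest of its alternatives, which began at 7.3e-10).

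Acta2 rose over 5 days in both K27M comparisons, by 3.09 ± 0.85 in brainstem (adjusted p = 0.00254) and by 3.14 ± 0.82 in telencephalon (0.00136). In brainstem K27M the libraries had 0.0339, 0.188 and 1.58 CPM at day 0 and 1.12, 2.73 and 6.27 CPM at day 5, and they overlapped because culture 41 was already at 1.41 CPM on day 0. Without culture 42 that value was 2.69 (0.079, the highest of its alternatives, which began at 6.0e-08). In controls the differences were 1.98 ± 1.35 in brainstem (0.197) and 1.74 ± 0.78 in telencephalon (0.0528), neither of which passed.

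Which of these genes separated control brainstem from control telencephalon? On all 4 days Acta2 was lower in brainstem, by more than any other of the 9 genes, and Thbs1 was lower from day 1 on. Tgfb2 and Tgfbr3 were higher in brainstem at days 0 and 1. Of the 9 genes 3 passed at day 0 (2 higher, 1 lower in brainstem), 5 at day 1 (2 higher, 3 lower), 4 at day 2 and 2 at day 5 (all lower), where 10.9%, 27.9%, 10.3% and 14.7% of all genes tested did. With wells as samples 5, 6, 7 and 5 of the 9 passed, against 36.1%, 54.1%, 38.2% and 43.1% of genes. Passage was higher in brainstem controls than in telencephalon controls, and with mean passage as a covariate 7 of the 36 tests of these 4 days passed in place of 14.

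Acta2 was almost absent from brainstem controls. Their libraries had 0, 0 and 0.105 CPM at day 0 and 0, 0.0267 and 0.136 CPM at day 5 (lowest, median and highest), and 6, 4, 6 and 2 of the 9, 8, 9 and 9 libraries were at 0 on days 0, 1, 2 and 5. Telencephalon controls had 0.903, 3.43 and 9.61 CPM at day 0 and 6.03, 12.02 and 14.6 CPM at day 5. Every telencephalon control library was above every brainstem control library of its day. The brainstem controls held 12, 5, 3 and 68 Acta2 counts on the 4 days, and on day 5 culture 38, which holds the deepest library, was at 0.128 CPM against 0.0352 and 0.00747 CPM in cultures 41 and 42. Log2 fold changes were -7.17 ± 1.18, -7.47 ± 1.31, -10.26 ± 1.41 and -6.93 ± 1.03 on days 0, 1, 2 and 5 (adjusted p = 0.00014, 0.000102, 1.0e-05 and 2.8e-05). Such folds depend on few reads, so ratios of the pooled counts are given too. Telencephalon over brainstem was 175 at day 0 (95% exact interval 99.9 to 339), 189 at day 1 (80.7 to 583), 1003 at day 2 (343 to 4868) and 116 at day 5 (91.4 to 150). These intervals cover counting error only, since read pairs are not independent molecules. The ratios also depend on single libraries and cultures. Without the deepest library 17 of the 68 brainstem control counts at day 5 remained and the ratio was 210.3 (131 to 361), and without culture 38 it was 460 on 5 counts. At day 1 it was 669 without culture 38 (1 count) and 106 without culture 42, at day 2 it was 685 without culture 38 and 497 without culture 42, and without culture 41 the brainstem controls of day 2 held 0 counts. Without cultures 41 and 42 of the day 5 brainstem controls the day 5 value was -5.16 (adjusted p = 0.0569, the highest of its alternatives, from 4.1e-18).

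A stretch of the Acta2 promoter is shown because the gene carries the largest difference of the 9. A CArG box, the site of serum response factor, is a pair of C bases, then a run of A or T bases, then a pair of G bases. No exact CArG box was found from 250 bases before to 50 bases after the RefSeq start (base 34255373 of chromosome 19, minus strand, GRCm38.p6). With 1 of the 6 middle bases allowed to be C or G, 2 matches were found, at 84 and 34 bases before the start, in capitals:
Acta2 CArG-like 1, chr19:34255438-34255467 (minus strand): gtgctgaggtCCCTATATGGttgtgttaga
Acta2 CArG-like 2, chr19:34255388-34255417 (minus strand): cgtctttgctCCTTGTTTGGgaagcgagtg
These are sequences of NCBI RefSeq, read 5′ to 3′ along the gene. Of 32851 promoters of this length, 1.63% held an exact CArG box and 8.50% at least 1 match of the looser form, on either strand. The looser search was added after the exact one found nothing. A match of letters is a description, not a bound site.

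Thbs1 was also lower in brainstem controls, though not absent. At day 1 brainstem libraries had 0.0947, 0.166 and 0.303 CPM and telencephalon libraries 0.824, 1.51 and 2.14 CPM. At day 2 they had 0.0871, 0.142 and 0.312 CPM against 1.54, 4.44 and 9.23 CPM, and at day 5 0.132, 0.374 and 0.638 CPM against 4.09, 26.9 and 37.3 CPM. From day 1 on no brainstem control library reached a telencephalon one. The log2 fold change was -1.86 ± 0.68 at day 0 (adjusted p = 0.0719), -2.91 ± 0.74 at day 1 (0.00385), -4.66 ± 0.78 at day 2 (0.000184) and -5.50 ± 0.76 at day 5 (1.0e-05). The day 5 call held under all 14 alternatives. With passage as a covariate day 1 was -0.37 (0.759) and day 2 -1.87 (0.11), and without culture 42 day 1 was -2.56 (0.0915), where the alternatives ran from 6.1e-07 to 0.759 at day 1 and from 3.7e-14 to 0.11 at day 2.

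Among the receptors, Tgfbr2 was lower in brainstem controls at day 2, with 0.134, 0.193 and 0.366 CPM against 0.691, 2.22 and 2.56 CPM in telencephalon, and no overlap. The log2 fold change was -2.95 ± 0.49 (adjusted p = 0.000181) and -1.83 with passage as a covariate (0.0823, the highest of its alternatives, from 1.5e-15). On days 0 and 5, where libraries did not overlap either, it was -1.21 ± 0.43 (0.0687) and -1.17 ± 0.43 (0.0623). Tgfbr3 stood the other way, with 1.03, 1.37 and 1.53 CPM in brainstem against 0.345, 0.565 and 0.877 CPM in telencephalon at day 0. Its difference was 1.22 ± 0.31 at day 0 (0.00996) and 1.15 ± 0.31 at day 1 (0.00563), with no overlap on either day. At day 0 it was lost without culture 38 (1.14, 0.131), without culture 42 (1.06, 0.0602), with passage as a covariate (1.06, 0.144) and with effective length (1.21, 0.0702), and the alternatives ran from 3.7e-07 to 0.144. At day 1 it was lost with passage (0.97, 0.102). Tgfbr1 differed by -0.22 ± 0.08 at day 1 (0.0304), a call lost without culture 41 (-0.17, 0.197) or 42 (-0.23, 0.164), with 1.6e-05 to 0.45 over the alternatives.

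Of the ligands, Tgfb2 was higher in brainstem controls at day 0, with 6.97, 13.7 and 21.9 CPM against 2.88, 3.88 and 5.34 CPM. Its log2 fold change was 1.78 ± 0.41 at day 0 (adjusted p = 0.00511), with no overlap of libraries, and 1.16 ± 0.41 at day 1 (0.034). Day 0 was lost without culture 41 (1.66, 0.0976) and with passage (1.67, 0.0795), and day 1 without culture 38 (0.78, 0.239), without culture 41 (1.03, 0.217), without 2 telencephalon K27M wells of culture 42 that stood apart (1.15, 0.0504) and with passage (1.04, 0.206), where the alternatives ran from 7.7e-10 to 0.0976 and from 2.9e-05 to 0.239. At days 2 and 5 the difference was -0.14 ± 0.40 and -0.03 ± 0.40. Tgfb1 was lower in brainstem controls at day 2 (-1.94 ± 0.62, adjusted p = 0.0355) on 7 counts against 26, a ratio of telencephalon to brainstem of 3.62 (95% exact interval 1.53 to 9.87). That call was lost without culture 38 (-1.77, 0.198), 41 (-1.98, 0.193) or 42 (-2.10, 0.0746) and without the deepest library (-1.95, 0.0502), with 0.00382 to 0.198 over the alternatives. Tgfb3 and Ltbp1 passed on no day.

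What did K27M change in brainstem cultures? At day 5 Acta2, Thbs1 and Tgfbr1 were higher in K27M lines and Tgfb1 and Tgfb3 lower. At days 0, 1, 2 and 5, 0, 1, 2 and 5 of the 9 genes passed, where 1.32%, 4.37%, 3.79% and 11.5% of all genes tested did. The 1 and 2 genes of days 1 and 2 were all higher in K27M, as were 3 of the 5 at day 5. With wells as samples 4, 5, 6 and 8 passed, against 11.3%, 28.8%, 26.1% and 38.6% of genes. The median log2 fold change of the 9 genes was 0.26, 0.37, 0.65 and 0.32 on the 4 days, and that of all genes tested 0.01, 0.02, 0.01 and -0.01. The 5 of 9 at day 5 are a larger share than that of all genes, which is given as a description since the 9 genes were chosen with results of these data known. The controls are the same libraries as in the comparison of regions, so a low control level enters both. K27M lines were at a lower mean passage than controls.

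**Figure D3:**
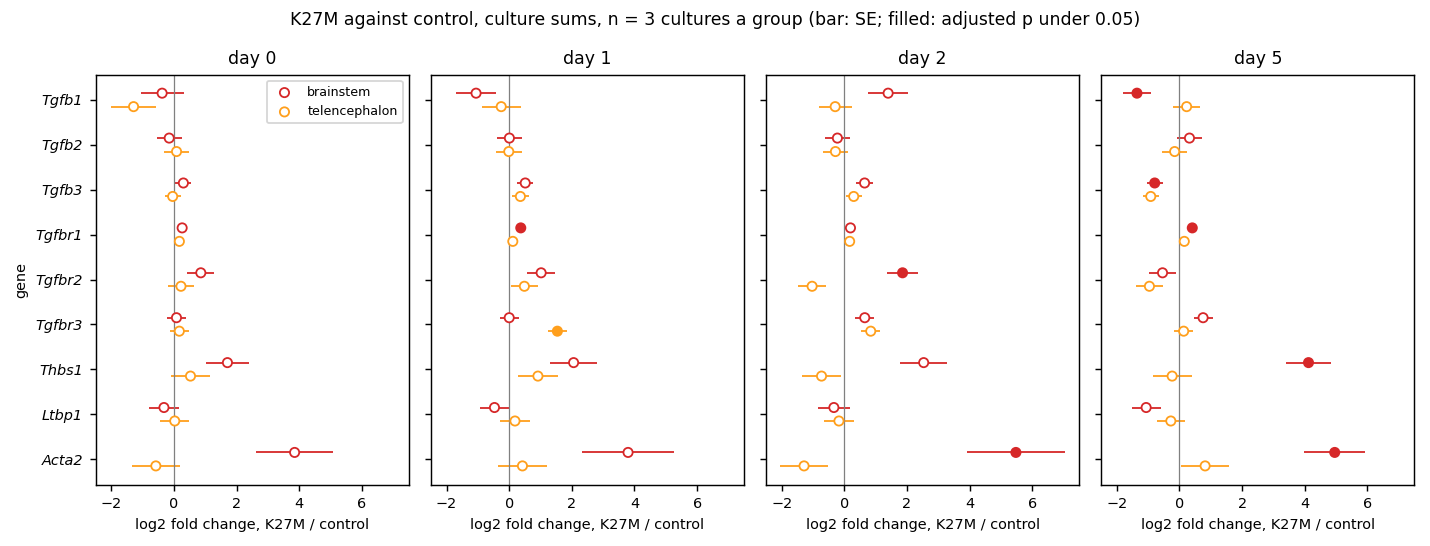
Log2 fold change of K27M against control for the 9 genes (rows) on days 0, 1, 2 and 5 (panels), in brainstem (red) and telencephalon (orange). Bars are SE of the fit with n = 3 cultures a group, and filled points have an adjusted p under 0.05. Brainstem Acta2 lies between 3.79 and 5.48 on every day and brainstem Thbs1 reaches 4.12 at day 5, while the only filled telencephalon point is Tgfbr3 at day 1.

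Acta2 showed the largest difference. Brainstem K27M libraries had 0.0339, 0.188 and 1.58 CPM at day 0, 0.017, 0.0725 and 0.938 CPM at day 1, 0.0379, 0.144 and 1.31 CPM at day 2 and 1.12, 2.73 and 6.27 CPM at day 5 (lowest, median and highest), where no control library of these days exceeded 0.136 CPM. K27M and control libraries did not overlap on days 2 and 5. All 3 K27M cultures were above their control of the same number on each day, but unequally. On day 0 cultures 38, 41 and 42 had 0.0646, 1.41 and 0.223 CPM against 0.0366, 0.00597 and 0.0331 CPM in controls, and on day 1 0.0432, 0.817 and 0.083 CPM against 0.0291, 0 and 0.00951 CPM. On day 2 the K27M cultures 38, 41 and 42 had 0.088, 1.22 and 0.0889 CPM and on day 5 1.25, 5.99 and 2.79 CPM. The log2 fold changes were 3.85 ± 1.22, 3.79 ± 1.48, 5.48 ± 1.57 and 4.96 ± 0.97 (adjusted p = 0.131, 0.13, 0.0381 and 0.00103). From the pooled counts K27M exceeded control 24.1-fold at day 0 (95% exact interval 13.6 to 47.1), 19.5-fold at day 1 (8.18 to 60.9), 73.9-fold at day 2 (24.98 to 361) and 37.0-fold at day 5 (29.0 to 47.9), intervals of counting error only. Culture 41 carried the earlier days: without it the ratio was 4.38 at day 0 (2.26 to 9.29) and 3.23 at day 1 (1.22 to 10.8), and at day 2 the controls held 0 counts against 21. In culture 41 the K27M wells of days 0 to 2 were at passage 1 or 2 and the control wells at passage 4 or 5. Genotype and passage cannot be told apart within that culture. Without culture 38 the ratio was 40.4 at day 0 and 79.6 at day 1 (on 1 control count), and without culture 42 it was 41.0 at day 0. At day 5 it was 19.9 without culture 41, 207 without culture 38 (on 5 control counts) and 66.9 without the deepest library (41.7 to 115).

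The Acta2 calls were lost without single cultures. At day 5 the value was 4.43 without culture 41 (adjusted p = 0.0525), 4.20 without culture 42 (0.0925) and 3.18 without the control wells of cultures 41 and 42 (0.194), with 3.3e-11 to 0.194 over the alternatives. At day 2 it was 6.84 without culture 41 (0.345), 5.50 without culture 42 (0.26), 5.47 without the 2 telencephalon wells that stood apart (0.064), 4.05 with passage (0.0665), 5.12 with effective length (0.0567) and 5.80 with no replicate block (0.0799), with 8.1e-05 to 0.345 over the alternatives. The direction held in each. Even at day 5 brainstem K27M remained below telencephalon controls, 3.34 ± 2.42 against 10.6 ± 2.77 CPM (SD, n = 3 cultures), a pair that was not tested.

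Thbs1 was higher in brainstem K27M libraries at day 5, with 2.52, 11.6 and 15.3 CPM against 0.132, 0.374 and 0.638 CPM in controls, and no overlap. Cultures 38, 41 and 42 had 2.68, 11.5 and 15.0 CPM in K27M and 0.596, 0.211 and 0.336 CPM in controls. Thbs1 rose by 4.12 ± 0.72 on the log2 scale (adjusted p = 0.000346), a 17.4-fold difference. Culture 38, the other batch, showed 2.00 on the log2(CPM + 0.1) scale where cultures 41 and 42 showed 5.22 and 5.12. At day 5 culture 38 was at passage 4 in both genotypes. K27M against control wells were at passage 2 against 5 in culture 41 and 4 against 7 in culture 42. Batch and passage cannot be told apart in this contrast of cultures. Without culture 42 the value was 3.40 (0.059), and without the control wells of cultures 41 and 42 it was 2.75 (0.146), with 4.3e-14 to 0.146 over the alternatives. On days 0, 1 and 2 the difference was 1.70 ± 0.68, 2.06 ± 0.74 and 2.53 ± 0.75 (0.335, 0.105 and 0.0519), with 0.436, 0.567 and 2.25 CPM at day 2 against 0.0871, 0.142 and 0.312 CPM. The libraries of day 2 did not overlap although the test was not passed.

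Of the receptors, Tgfbr1 rose slightly in brainstem K27M. Day 1 libraries ran from 78.2 to 99.1 CPM (median 93.1) against 61.1 to 76.7 CPM (median 72.3), and day 5 libraries from 44.0 to 48.7 CPM (47.4) against 33.2 to 40.5 CPM (36.6). K27M and control libraries did not overlap on either day. The log2 fold change was 0.37 ± 0.08 at day 1 (adjusted p = 0.00439) and 0.41 ± 0.08 at day 5 (0.000707), or 1.29-fold and 1.33-fold. Without culture 41 these were 0.31 (0.18) and 0.34 (0.0966), without the day 5 control wells of cultures 41 and 42 the latter was 0.36 (0.106), and DESeq2 beyond a fold of 1.1 called neither (0.0729 and 0.0501). The alternatives ran from 7.5e-10 to 0.18 and from 2.4e-10 to 0.106. On days 0 and 2 the values were 0.26 ± 0.08 (0.1) and 0.20 ± 0.08 (0.164).

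Tgfbr2 rose in brainstem K27M at day 2, when the control level was at its lowest. K27M libraries had 0.438, 0.821 and 1.15 CPM and control libraries 0.134, 0.193 and 0.366 CPM, with no overlap. Tgfbr2 rose by 1.86 ± 0.49 (adjusted p = 0.0242). It was 1.56 without culture 41 (0.262), 1.99 without culture 42 (0.153) and 1.44 with passage (0.0798), with 9.0e-07 to 0.262 over the alternatives. At day 5 it was -0.54 ± 0.43 (0.445), and cultures 38, 41 and 42 gave -1.44, -0.31 and 0.34 on the log2(CPM + 0.1) scale. Tgfbr3 passed on no day in brainstem, with 0.75 ± 0.30 at day 5 (0.102).

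Both changes among the ligands were decreases at day 5. Tgfb3 libraries had 3.53, 4.20 and 4.90 CPM in K27M and 6.51, 6.85 and 8.33 CPM in controls, with no overlap. Tgfb3 fell by 0.79 ± 0.26 on the log2 scale (adjusted p = 0.0407), in all 3 cultures. Without culture 38 it was -0.57 (0.287), without culture 41 -0.94 (0.197), without the control wells of cultures 41 and 42 -1.26 (0.0501) and without the 2 telencephalon wells -0.79 (0.0663), with 8.1e-06 to 0.287 over the alternatives. Tgfb1 fell by 1.36 ± 0.45 (0.0434), with 0.0383, 0.102 and 0.176 CPM in K27M against 0.0195, 0.286 and 0.561 CPM in controls. These Tgfb1 libraries overlapped, and the 3 cultures of controls were unequal, at 0.0835, 0.431 and 0.314 CPM.

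The day 5 control wells of cultures 41 and 42 had counts for 24905 to 33752 genes, and the deepest library, of culture 38, for 29299. The Tgfb1 call depended on the control wells of cultures 41 and 42. Without them it was -0.24 (adjusted p = 0.898), without culture 41 -1.20 (0.447), without culture 42 -1.15 (0.261), without the deepest library -1.25 (0.0815), without the 2 telencephalon wells -1.36 (0.0525) and with passage -0.74 (0.457). It was lost under 10 of the 14 alternatives, which ran from 0.00161 to 0.898. The pooled counts, 50 in K27M and 132 in controls, gave a control to K27M ratio of 1.84 (95% exact interval 1.32 to 2.60), and of 2.90 (2.04 to 4.17) without the deepest library, 3.42 without culture 38 and 1.44 (0.966 to 2.20) without culture 42. Tgfb2 passed on no day in brainstem, with log2 fold changes of -0.22 to 0.32, and neither did Ltbp1, which was lower in all 3 K27M cultures at day 5 (-1.06 ± 0.46, adjusted p = 0.128).

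What did K27M change in telencephalon cultures? Only Tgfbr3 at day 1 passed, among the 36 tests of 9 genes on 4 days. At days 0, 1, 2 and 5, 0, 1, 0 and 0 of the 9 genes passed, where 0.335%, 4.41%, 4.6% and 1.99% of genes did. With wells as samples 1, 2, 4 and 3 passed, against 15.7%, 28.8%, 32.3% and 22.3% of genes. The median log2 fold change of the 9 genes was 0.08, 0.36, -0.28 and -0.15.

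Tgfbr3, the betaglycan gene, had 1.85, 2.22 and 4.56 CPM in telencephalon K27M libraries of day 1 and 0.705, 0.908 and 1.25 CPM in controls. The libraries did not overlap, and all 3 cultures were higher in K27M, with 4.11, 2.00 and 2.06 CPM against 1.04, 0.874 and 0.872 CPM. Tgfbr3 rose by 1.54 ± 0.31 (adjusted p = 0.00538). Without culture 38 the value was 1.23 (0.0667) and without culture 41 1.67 (0.132), with 2.2e-10 to 0.132 over the alternatives. Across the gene 41.2% of Tgfbr3 TPM was assigned to a transcript with a retained intron, so part of this level is not the coding transcript.

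Tgfb3 at day 5 came nearest to passing, with 3.98, 6.43 and 7.83 CPM in telencephalon K27M against 8.41, 10.8 and 13.6 CPM in controls. The libraries did not overlap and all 3 cultures were lower, by -0.92 ± 0.26 (adjusted p = 0.0535), a size like the -0.79 ± 0.26 of brainstem. Acta2, by contrast with brainstem, had 11.2, 24.3 and 28.2 CPM in K27M and 6.03, 12.02 and 14.6 CPM in controls at day 5, a difference of 0.82 ± 0.76 (0.693), and -1.29 ± 0.77 at day 2 (0.355). Thbs1 differed by -0.23 ± 0.63 at day 5 (0.922), with cultures at -1.70, 1.17 and 0.28 on the log2(CPM + 0.1) scale. Both genes were high in telencephalon cells of either genotype.

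Did the K27M effect differ between the regions? The difference of the 2 effects was tested in the same fit. It passed for Tgfbr3 at day 1, Tgfbr2 and Acta2 at day 2, and Thbs1 and Acta2 at day 5. At days 0, 1, 2 and 5, 0, 1, 2 and 2 of the 9 genes passed, where 0.00435%, 9.18%, 0.922% and 4.81% of genes did, and with wells as samples 1, 3, 3 and 4, against 7.25%, 35.8%, 14.1% and 29.7%. These tests use the same libraries as the K27M comparisons within each region.

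The brainstem effect exceeded the telencephalon effect by 4.35 ± 0.94 for Thbs1 at day 5 (adjusted p = 0.0115), by 4.14 ± 1.21 for Acta2 at day 5 (0.0428), by 6.76 ± 1.76 for Acta2 at day 2 (0.0499) and by 2.89 ± 0.66 for Tgfbr2 at day 2 (0.026). For Tgfbr3 at day 1 it was smaller by 1.54 on the log2 scale (-1.54 ± 0.43, 0.025). In all 5, the 3 differences between same-numbered cultures of the regions had the same sign. Lines of a number are separate lines in different batches, so this is a description only. The calls were lost when cultures were left out. For Thbs1 the value was 4.54 without culture 41 (0.181), 3.83 without culture 42 (0.344) and 2.98 without the day 5 brainstem control wells of cultures 41 and 42 (0.72, with 5.95e-10 to 0.72 over the alternatives). For Acta2 at day 5 the corresponding values were 4.08 (0.305), 3.51 (0.483) and 2.36 (0.774), with 4.13 (0.069) without the 2 telencephalon wells and 5.6e-06 to 0.774 over the alternatives.

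For Acta2 at day 2 the difference was 6.15 without culture 38 (adjusted p = 0.0935), 8.45 without culture 41 (0.377) and 7.10 without culture 42 (0.292), with 8.9e-06 to 0.377 over the alternatives. For Tgfbr2 it was 2.45 (0.201), 3.10 (0.139) and 3.09 (0.203) in the same order and 2.25 with passage (0.175), with 1.3e-08 to 0.203 over the alternatives. For Tgfbr3 it was -1.18 without culture 38 (0.156) and -1.66 without culture 41 (0.371), with 2.5e-06 to 0.371 over the alternatives. No direction changed. Thbs1 at day 2 differed by 3.26 ± 0.98 (0.111), and by 4.14 (0.0394) without the 2 telencephalon K27M wells of culture 42 that stood apart, with 6.3e-05 to 0.555 over the alternatives.

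The other genes of the pathway were listed by role, 81 genes of which 76 were tested. Between K27M and control in brainstem 2, 7, 4 and 17 of the 76 passed on days 0, 1, 2 and 5, of which 15 were higher and 2 lower on day 5 and all were higher before. Of all genes tested 1.32%, 4.37%, 3.79% and 11.5% passed. In telencephalon 0, 1, 2 and 2 passed, where 0.335%, 4.41%, 4.6% and 1.99% of all genes did, the 1 at day 1 higher and the 2 and 2 lower. At day 5 in brainstem the contractile genes, of which 6 of 16 rose and 1 fell (median log2 fold change 0.38), are set beside Acta2, and the 11.5% of all genes that passed in this comparison is the share to read each list against. Tagln, which encodes the actin-binding protein SM22, rose by 3.39 ± 0.92 and Myl9, a myosin light chain, by 2.44 ± 0.62 (14.1 ± 2.31 against 2.24 ± 2.49 CPM), while Smtn fell by 1.03. Of the receptors 4 of 10 rose (median 0.77), among them Bambi (1.47 ± 0.30), a decoy receptor, and Vasn (1.62 ± 0.49), whose product binds TGF-beta.

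Of the SMAD transducers and regulators 3 of 11 rose and 1 fell at day 5 in brainstem, with the co-repressor Tgif1 (1.84 ± 0.47) and Smad2 (0.43 ± 0.14) higher and Zfyve9, which brings SMADs to the receptor, lower (-0.25 ± 0.07). Of 14 transcripts known to rise with TGF-beta only Fn1, the fibronectin gene, rose at day 5 (3.04 ± 0.40, 8.85 ± 2.77 against 1.08 ± 0.40 CPM), and the median of the list was -0.26. Fn1 had also risen at day 1 (1.43 ± 0.39) and day 2 (2.08 ± 0.41), and Ccn2 at day 0 (3.28 ± 0.85) and day 2 (3.50 ± 0.86). Of the genes for latency, storage and release 1 of 17 rose at day 5, Fbn1 (0.82 ± 0.23), and of other ligands and antagonists 0 of 8. In telencephalon Mmp14 (-2.26 ± 0.60) and Plat (-1.07 ± 0.23) fell at day 2 and Itgav (-0.67 ± 0.18) and Cdkn2b (-1.54 ± 0.37) at day 5, and Fn1 rose at day 1 (1.42 ± 0.39). The difference of the K27M effect between regions passed for 0, 7, 3 and 13 of the 76 on days 0, 1, 2 and 5. In each of these the brainstem effect was the higher. Of all genes tested 0.00435%, 9.18%, 0.922% and 4.81% passed. Among the 13 of day 5 were Fn1 (2.62 ± 0.53), Tagln (4.66 ± 1.24) and Myl9 (3.27 ± 0.85). Values with a culture left out are not given for the listed genes.

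Over differentiation 43, 45, 47 and 48 of the 76 passed in brainstem control, brainstem K27M, telencephalon control and telencephalon K27M, with 26, 29, 35 and 33 higher. Of all genes 62.0%, 55.1%, 60.1% and 61.2% passed, so the pathway list passed at about the rate of all genes. Tgfbi, a matrix protein named for its induction by TGF-beta, rose by 8.11, 5.83, 7.95 and 6.08 on the log2 scale, and the inhibitory Smad7 by 5.16, 4.09, 4.97 and 5.28. Fbn2 fell by 3.78, 3.40, 4.29 and 5.00 and Tpm1 by 2.15, 1.58, 2.21 and 2.31. In control brainstem against control telencephalon 12, 20, 19 and 27 passed on the 4 days, of which 9, 14, 16 and 25 were lower in brainstem, where 10.9%, 27.9%, 10.3% and 14.7% of all genes passed. Tagln was lower by 5.64 at day 5 (-5.64 ± 0.99), Tgif1 by 2.52 (-2.52 ± 0.48) and Mmp14, a matrix protease, by 2.62 (-2.62 ± 0.60).

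Summed marker levels of other cell types are given beside Acta2 and Thbs1. Astrocyte markers (10 genes) summed to 418 to 3108 CPM in brainstem control libraries of day 5 and to 1744 to 3542 CPM in brainstem K27M, and at day 2 to 241 to 422 against 465.7 to 867 CPM. Of the 10 genes, 0, 0, 2 and 1 were higher in brainstem K27M on days 0, 1, 2 and 5 (median log2 fold change 1.76, 1.07, 2.15 and 1.15). Most of the list did not pass. Of all genes tested 1.32%, 4.37%, 3.79% and 11.5% passed in these comparisons. Gjb6, 1 of the 10, was at 0 in brainstem controls of days 0, 1 and 2 and in brainstem K27M of day 1, and under 0.1 CPM in every brainstem K27M library of days 0 and 2. It was also under 0.1 CPM in every telencephalon library of days 0 and 1, but in no group of day 5. No other of the 10 genes was under 0.1 CPM in every library of any group. In telencephalon the sums at day 5 were 2904 to 17491 CPM in controls and 761 to 6662 CPM in K27M. The part of astrocytes in the Acta2 and Thbs1 differences was not tested.

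Single cultures show how far the measures went together. The brainstem control culture 38 of day 5 held an astrocyte sum of 3099.6 CPM with Acta2 at 0.128 and Thbs1 at 0.596 CPM, while the telencephalon K27M culture 38 of day 5 held 810 CPM with Acta2 at 12.2 and Thbs1 at 9.36 CPM. The brainstem K27M cultures 38, 41 and 42 of day 5 held 1815, 3397 and 2203 CPM with Acta2 at 1.25, 5.99 and 2.79 CPM. Brainstem control cultures 41 and 42 of that day held 452 and 533 CPM with Acta2 at 0.0352 and 0.00747 CPM. Markers of pericytes, smooth muscle and fibroblasts (12 genes, Acta2 and Thbs1 not among them) summed to 1.05 to 37.1 CPM over all libraries, with 2.51 to 6.57 CPM in brainstem controls and 6.06 to 10.7 CPM in brainstem K27M at day 5. Of these 12 genes 1 was higher in brainstem K27M at day 5, where 11.5% of all genes tested passed. The median log2 fold change of the list was -0.30. Over the 48 sums of culture and day, log2 Acta2 had a Pearson r of 0.53 with the astrocyte sum and 0.70 with the mural and fibroblast sum, and Thbs1 0.72 and 0.79. These sums share libraries, days and cultures, so the r values are a description.

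**Figure D4:**
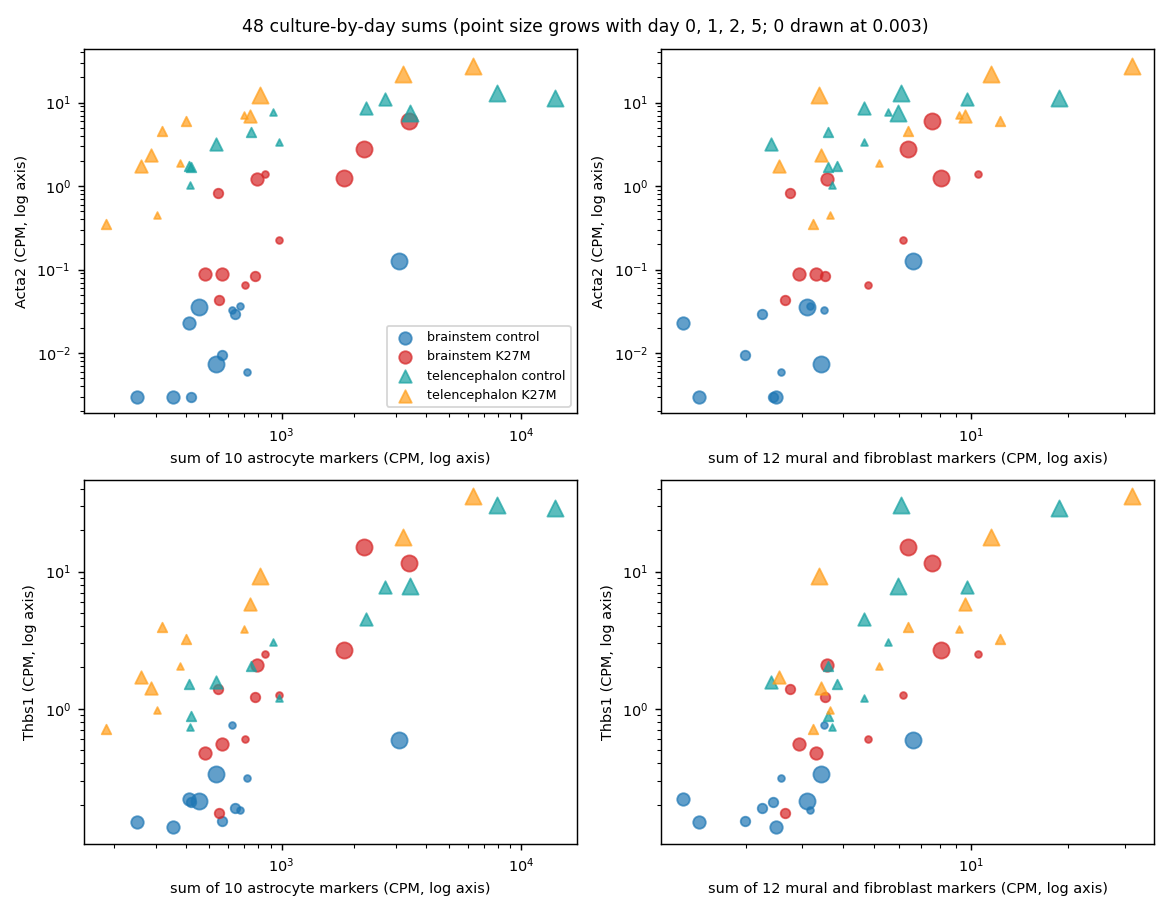
Acta2 (upper panels) and Thbs1 (lower panels) against the summed CPM of 10 astrocyte markers (left) and 12 pericyte, smooth muscle and fibroblast markers (right), all on log axes, for the 48 sums of culture and day. Point size grows with the day, colours and shapes give region and genotype, and values of 0 are drawn at 0.003. Acta2 of brainstem controls lies below every telencephalon sum and is 0.128 CPM at its highest, at an astrocyte sum of 3099.6 CPM. Brainstem K27M sums overlap these controls, with culture 38 at 0.0432 CPM on day 1.

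Tgfb1 is in the brain a transcript of microglia above all. Microglia markers (8 genes) summed to 0.0635 to 7.07 CPM over all libraries, and at day 5 to 1.06 to 2.83 CPM in brainstem controls and 2.12 to 4.50 CPM in brainstem K27M. The list as a whole did not follow that sum. In brainstem K27M of day 5, 6 of the 8 markers were under 0.1 CPM in every library, with C1qa and C1qb at 0. Of the 6 tested 1 was higher and 1 lower in brainstem K27M (median log2 fold change -1.68), where 11.5% of all genes tested passed. Endothelial markers (8 genes) to 0.586 to 2.96 CPM over all libraries, with Cldn5 at 0 in brainstem controls of days 0, 1 and 2. Myelin markers summed to 49305 to 69753 CPM in brainstem controls and 31624 to 41205 CPM in brainstem K27M at day 5. There 1 of 8 was lower in K27M (median log2 fold change -0.65), where 11.5% of all genes tested passed. Tgfb1 and Tgfb3 were the ligands called lower in brainstem K27M at day 5, calls lost under 10 and 7 of the 14 alternatives. They had an r of 0.68 and 0.75 with the myelin sum over the 48 sums. The part of maturation in their change was not tested.

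Which transcripts carried these genes? A single transcript held 95.1% of Thbs1 TPM over all libraries, and the leading one 87.0% of Acta2, 78.8% of Tgfbr1 and 70.6% of Tgfbr2 TPM. Ltbp1 has coding transcripts from an upstream start and from a downstream start inside the gene. TPM was averaged over the coding transcripts of each start, and the downstream mean was taken as a percent of the 2 means together. This share weighs the starts per transcript and is not the downstream part of summed coding TPM. The downstream start has more coding transcripts, so its part of the summed TPM is larger. At day 0 the share per transcript was 21.8% ± 3.56 in brainstem controls, 20.9% ± 0.834 in brainstem K27M, 42.1% ± 3.00 in telencephalon controls and 53.3% ± 4.35 in telencephalon K27M (SD, n = 3 cultures). Cultures of the 2 regions did not overlap in either genotype at day 0, and the exact two-sided permutation p was 0.1 in each, the smallest that 3 against 3 cultures allow. On days 1, 2 and 5 the regions overlapped (p of 0.2 to 0.9), and at day 5 the shares were 21.8%, 17.1%, 25.02% and 20.0%. Total Ltbp1 did not differ between control regions at day 0 beyond the spread of cultures, -0.10 ± 0.46 with an adjusted p of 0.936.

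The 250 bases before each Ltbp1 start are shown because the cultures of the 2 regions did not overlap in the share of these starts at day 0, a difference that 3 against 3 cultures cannot bring under 0.05 and that cannot be told apart from batch, with the SMAD-binding letters CAGAC in capitals (here on the other strand, as GTCTG):
Ltbp1 upstream start, chr17:75005279-75005528 (plus strand): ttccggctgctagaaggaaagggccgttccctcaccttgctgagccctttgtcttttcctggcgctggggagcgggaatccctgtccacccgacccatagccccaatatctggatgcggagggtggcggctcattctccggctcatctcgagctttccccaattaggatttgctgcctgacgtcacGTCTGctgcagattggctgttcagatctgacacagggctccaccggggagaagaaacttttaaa
Ltbp1 downstream start, chr17:75178531-75178780 (plus strand): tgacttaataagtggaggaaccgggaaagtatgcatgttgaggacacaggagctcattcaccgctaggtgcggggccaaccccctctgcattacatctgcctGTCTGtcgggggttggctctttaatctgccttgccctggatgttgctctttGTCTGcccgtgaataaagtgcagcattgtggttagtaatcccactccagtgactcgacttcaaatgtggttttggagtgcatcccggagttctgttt
Both come from NCBI RefSeq (GRCm38.p6). The upstream window holds 1 match and the downstream window 2. These counts are the same in windows of 300 bases, from 250 before to 50 after the start. In such windows 49.6% of all 32851 promoters hold CAGAC on either strand, so the letters are common.

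Which genes had patterns most like these? For each gene the 3 protein-coding genes with the highest Pearson r of log2(CPM + 0.1) over the 48 sums are given, among 12356 genes with a mean of at least 1 CPM. Acta2 was most like Tagln (0.946), Kcne1l (0.913) and Thbs1 (0.912), and Thbs1 most like the collagen gene Col5a2 (0.935), Tagln (0.923) and Erbb2 (0.922). Tgfbr1 was most like Rbm15b (0.960), Epc2 (0.936) and Hif1a (0.936), Tgfbr2 like Ggact (0.918), Jade2 (0.915) and Fgl2 (0.915), and Tgfbr3 like Cacna2d3 (0.785), Dcx (0.784) and Camta1 (0.778). Ltbp1 was most like Gprc5b (0.938), Sec11c (0.929) and Synj2 (0.926). Among the ligands Tgfb3 was most like Kif13b, Il12rb1 and Ndst1 (0.915, 0.915 and 0.914), Tgfb1 like Hid1 (0.883), Ddr1 (0.875) and Tjap1 (0.874), and Tgfb2 like Nckap5 (0.834), Frmd4a (0.814) and Foxp2 (0.758). Between the 9 genes themselves Thbs1 and Acta2 went together most (0.912), then Tgfbr2 and Ltbp1 (0.877), and Tgfbr1 ran opposite to Ltbp1 (-0.885) and Tgfb1 (-0.810). The 48 sums share lines and days, so these values describe likeness of pattern only.

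Ordered by mean CPM over cultures, the highest of the 16 groups was a day 5 group for Tgfb1 (brainstem control, 0.276 ± 0.177), Tgfb3 (telencephalon control, 11.01 ± 0.965), Tgfbr2 (telencephalon control, 14.3 ± 3.14), Thbs1 (telencephalon control, 22.6 ± 12.8), Ltbp1 (telencephalon control, 35.5 ± 8.51) and Acta2 (telencephalon K27M, 20.6 ± 7.73). For Tgfb2 it was telencephalon control of day 2 (23.0 ± 2.32), for Tgfbr1 brainstem K27M of day 2 (96.9 ± 7.86) and for Tgfbr3 telencephalon K27M of day 1 (2.72 ± 1.20). The lowest group was brainstem control of day 2 for Acta2 (0.00763), Thbs1 (0.170) and Tgfbr2 (0.230). Neighbours in this order overlapped in the range of their cultures in 12 to 15 of 15 steps, so most ranks next to each other are not resolved.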

How the data were processed

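The authors ran paired-end, strand-specific total RNA-seq and quantified the reads with Salmon 1.10.1 (mm10, per the labels). The deposited values are an estimated count, TPM and effective length for each of 141084 transcripts, and 139821 matched the gene annotation used here, the rest holding 0.252% to 0.377% of each library's counts. Estimated counts and deposited TPM were summed per gene, and counts were summed over wells per culture line and day and rounded. The test was edgeR 4.0.16 (R 4.3.3): TMM scaling, the default filter on low counts, groups plus culture within region, quasi-likelihood test, Benjamini-Hochberg adjustment over 23003 genes, tested on simulated data. This differs from the study's fit of single libraries with DESeq2, which was not rerun. Among the alternatives is DESeq2 on the same sums per culture line and day (version 1.42.0, with and without a fold threshold of 1.1). CPM is the count per M of the library total of tested genes times its TMM factor. Differences of single cultures are on the log2(CPM + 0.1) scale.

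The culture number is a term of the test because the study's own model holds it. The 9 genes and all lists were chosen with earlier results of these data known. Named beside them are, per list, comparison and direction, up to 2 genes with the largest log2 fold change among those with an adjusted p under 0.05, 1 sign in all 3 cultures and a mean of at least 1 CPM in a compared group. Cultures are pools of pups, so p-values measure the spread between 3 pools. Sequences are RefSeq's for GRCm38.p6.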

Additional observations from a re-analysis of the deposited data

Results flagged for a closer look

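In 13 of 144 sets of a gene and a group, the highest or the lowest library lay far from the rest by Dixon's criterion at the 95% level, which chance alone meets in about 1 in 20 groups. Wells of a culture are alike, so the wells of a group are not independent and this rate is only a guide.

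Replicate 1 of telencephalon K27M culture 42 gave 5 of the 13. At day 2 it had Acta2 at 20.5 CPM, Thbs1 at 16.5 CPM, Ltbp1 at 3.12 CPM and Tgfbr2 at 2.55 CPM, and at day 1 Acta2 at 11.9 CPM. In the day 2 well the astrocyte markers summed to 1793 CPM, the pericyte, smooth muscle and fibroblast markers to 24.8 CPM and the microglia markers to 4.02 CPM, the highest of its group in each case. That well was at passage 1 by the labels and the other day 2 wells of the culture at passage 3. Whether passage or other cells set these levels was not tested.

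A single well, replicate 1 of culture 38 of the brainstem controls at day 2, held the lowest Tgfbr1, 59.6 CPM. It also held the highest Tgfbr3, 2.68 CPM, and Ltbp1, 2.51 CPM. This well had 27.1 M read pairs, the fewest of its group, and counts for 20157 genes, the fewest of all libraries. The remaining libraries far from their groups were Tgfbr1 in telencephalon controls of day 2 (culture 42, lowest, 64.3 CPM), Tgfbr3 in brainstem K27M of day 1 (culture 38, highest, 2.74 CPM), Tgfb2 in telencephalon controls of day 0 (culture 42, highest, 5.34 CPM), and Tgfb1 in brainstem K27M of day 1 (culture 41, lowest, 0 CPM) and telencephalon K27M of day 0 (culture 41, highest, 0.0443 CPM).

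The K27M effect differed between the regions for 5 pairs of gene and day, by a test of the difference itself (brainstem minus telencephalon, log2). These were Tgfbr3 at day 1 (-1.54), Tgfbr2 at day 2 (2.89), Acta2 at day 2 (6.76) and day 5 (4.14) and Thbs1 at day 5 (4.35). Of these, Acta2 and Thbs1 were low in brainstem controls on those days and high in telencephalon cells of both genotypes.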

How the results depend on the processing

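Of 53 calls, 23 held under all 14 alternatives, and no called value changed sign. Counts below are of the 36 tests (9 genes, 4 days or groups) of each family. For K27M in brainstem 8 passed, against 23 with wells as samples, 13 with DESeq2, 5 with DESeq2 beyond a fold of 1.1, 5 with passage as a covariate, 5 without the 2 telencephalon K27M wells (chosen after seeing the data), 4 without the day 5 brainstem control wells of cultures 41 and 42 and 1 to 12 when a culture number was left out (1 without culture 41). For K27M in telencephalon 1 passed, against 10 with wells, 2 each with DESeq2, with passage, without the deepest library and without those day 5 control wells, and 0 to 1 when a culture number was left out. For the difference between regions 5 passed, against 11 with wells, 3 with effective length, 2 with passage, 3 without those day 5 control wells and 0 to 3 when a culture number was left out. For region in controls 14 passed, against 23 with wells, 7 with passage and 10 to 12 when a culture number was left out. For day 5 against day 0 25 passed, and 23 to 31 under the alternatives.

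With no replicate block, that is without the pairing by culture number, 5 of 36 passed for K27M in brainstem, 2 for the difference between regions, 1 for K27M in telencephalon, 11 for region and 24 for day 5 against day 0. Same-numbered K27M and control sums deviated together in part, with correlations over 0.1 in 22 of 24 pairs (-0.293 to 0.777, median 0.275).

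The main limit is the number of cultures, 3 a group, each a pool of pups: leaving out 1 number leaves 2 a group, and of the 9 K27M calls 2 were lost without culture 38, 8 without culture 41 and 5 without culture 42. Depth limits Tgfb1, and Acta2 in brainstem controls, to a few counts a library. Region cannot be told apart from batch, and passage differs between brainstem controls and the other lines. The cause of the changes under the alternatives was not tested.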
